A study of Mus musculus with 16 samples.

Results

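Siglecs are cell-surface lectins of the immunoglobulin superfamily that bind sialic acids, the sugars that cap most glycans of vertebrate cells. The 7 mouse Siglec genes examined were Siglec1, Cd22, Cd33, Siglece, Siglecf, Siglecg and Siglech, out of 55604 genes listed in the count files. The genes were chosen by name, with earlier results of these data known. They were compared between Tim-4+ and Tim-4- tumor-associated macrophages (TAMs). Both subsets were isolated from the peritoneal cavity of C57BL/6 mice bearing ID8 tumors, 6 to 7 weeks after the cancer cells were placed in the peritoneum. ID8 is a mouse ovarian surface epithelial cancer line, and the study's methods give female hosts of 6 to 8 weeks of age and a luciferase-bearing ID8 line. All mice were wild type, so that "Tim4+" in the labels names the phenotype of the isolated cells and not an allele. Per the study's methods, a density gradient first removed most tumor and dead cells, Tim-4+ cells were taken with antibody-coupled magnetic beads, and Tim-4- TAMs were then enriched from the remainder with beads against F4/80, with no step described that removes B cells or granulocytes. The study's figure legend for this assay says that the subsets were isolated and sorted. Its flow cytometry definition of TAMs left out cells with B cell and granulocyte markers. Whether that definition was applied to these libraries is not stated. Both groups carried the tumor, and the labels name no further treatment. The 8 libraries formed 4 pairs with the numbers 793, 784, 783 and 779, with 1 Tim-4+ and 1 Tim-4- library in each (n = 4 per subset). Whether a pair came from 1 mouse or from several pooled mice is not given for this assay. The p-values below therefore measure the spread between these libraries.

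Most Siglecs carry immunoreceptor tyrosine-based inhibitory motifs (ITIMs), which recruit the phosphatase SHP-1 and dampen activating signals when the receptor meets sialylated ligands. Siglec1 (CD169, sialoadhesin) is the exception among the macrophage members, because it lacks a signaling motif and works as an adhesion and capture receptor. Mouse Cd33 has an unusual cytoplasmic tail and, like Siglech, can pair with the activating adaptor DAP12. Siglece is the inhibitory Siglec of mouse neutrophils, monocytes and macrophages. Siglecf is best known from eosinophils and alveolar macrophages, Cd22 and Siglecg from B cells, and Siglech from plasmacytoid dendritic cells.

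Siglec1 lies on chromosome 2 (GRCm38, chr2:131069220-131086765, minus strand) and the other members on chromosome 7. Siglecf (chr7:43351341-43359531, plus strand), Siglecg (chr7:43408204-43418358, plus strand), Cd33 (chr7:43524216-43544428, minus strand) and Siglece (chr7:43651070-43660161, minus strand) share 1 cluster. Cd22 (chr7:30865402-30880342, minus strand) and Siglech (chr7:55768178-55778925, plus strand) lie outside it. Sequence before the start site is shown for 3 genes of the cluster: Siglece, because it was the only member that passed the test between the subsets, and Cd33 and Siglecf, because they share sequence there while their levels differed widely. All 3 are from the RefSeq promoter table on GRCm38.p6, which held 6 of the 7 members, and each ends at the base before the RefSeq start. The stretch for Cd33 was shortened so that it holds no annotated exon. It lies inside the Cd33 gene as placed above, since the RefSeq start used is not the outer end of the annotated gene. In Siglece (chr7:43660162-43660411, minus strand) the capitals mark the letters GAGGAA on either strand, a core bound by PU.1 and other ETS factors of myeloid cells. In Cd33 (chr7:43533172-43533364, minus strand) and Siglecf (chr7:43351091-43351340, plus strand) the capitals mark the longest run that both stretches share.
Siglece: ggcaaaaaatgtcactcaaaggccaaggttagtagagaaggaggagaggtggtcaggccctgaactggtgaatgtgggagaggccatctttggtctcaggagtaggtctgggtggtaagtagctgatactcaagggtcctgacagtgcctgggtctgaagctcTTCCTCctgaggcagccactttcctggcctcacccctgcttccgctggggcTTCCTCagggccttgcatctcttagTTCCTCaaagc
Cd33: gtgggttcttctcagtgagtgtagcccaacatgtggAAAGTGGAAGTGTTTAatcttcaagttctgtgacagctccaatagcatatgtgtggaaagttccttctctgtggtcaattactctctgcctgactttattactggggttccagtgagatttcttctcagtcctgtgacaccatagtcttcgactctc
Siglecf: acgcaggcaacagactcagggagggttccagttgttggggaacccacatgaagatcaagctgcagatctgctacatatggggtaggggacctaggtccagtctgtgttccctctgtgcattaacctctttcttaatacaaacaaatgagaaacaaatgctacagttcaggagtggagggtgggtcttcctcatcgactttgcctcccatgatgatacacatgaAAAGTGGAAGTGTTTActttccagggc
The shared run was 16 bases long and began 157 bases before the RefSeq start of Cd33 and 27 bases before that of Siglecf. The longest run that Siglece shared was 7 bases with Cd33 and 8 bases with Siglecf. GAGGAA occurred 3 times in the 250 bases of Siglece and 1 time in those of Siglecf. At least 1 match stood in 23.3% of the 32851 promoters in the table, in a window of that length. The share of promoters with 3 matches was not counted. GGAAGT, another ETS core, occurred 1 time in Cd33 and 1 time in Siglecf, in both cases within the shared run and not overlapping GAGGAA, and did not occur in Siglece. In the 193 bases of Cd33 that were searched GAGGAA did not occur. GGAAGT was held at least 1 time by 16.2% of promoters over 193 bases and by 19.7% over 250 bases. TGTGGT, a RUNX core that was also searched, occurred 1 time in Cd33 and 0 times in Siglece and Siglecf. It was held by 10.8% of promoters over 193 bases and by 14.0% over 250 bases. These matches are a description of the letters, and no binding was measured.

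RNA was measured by paired-end sequencing after removal of ribosomal RNA, and the counts of the 2 lanes of each library were summed. Totals were 53527928 to 57768202 counts in Tim-4+ libraries and 55618306 to 69594245 in Tim-4- libraries. Levels are given as CPM, counts scaled to library size, with TMM, edgeR's factor for differences in library makeup. A minimum of 3 counts corresponded to 0.0431 to 0.056 CPM before the TMM factor was applied. This floor covers counting error only. Timd4, the gene of the protein used for isolation, was 1160, 1743, 524 and 1166 CPM in the Tim-4+ and 84.9, 11.1, 22.3 and 1.96 CPM in the Tim-4- libraries of pairs 793, 784, 783 and 779. All 4 Tim-4+ libraries were thus above all Tim-4- libraries. All 8 macrophage markers checked were present, and 6 of them were higher, 1 lower (Mrc1) and 1 not called (Csf1r) in Tim-4+ TAMs, with a median log2 fold change of 0.93 and a summed level of 44540 to 57200 CPM against 21330 to 34350 CPM, most of it from Lyz2. Cd68 (log2 fold change 1.34), Adgre1 (1.28) and Itgam (1.24) had the largest values, and these and Mrc1 (-1.09) were named after their values were seen. Csf1r was 2557 to 2968 CPM in the Tim-4+ and 1957 to 2730 CPM in the Tim-4- libraries. All 7 markers of tumor and mesothelial cells fell in Tim-4+ TAMs, where their summed level was 101 to 375 CPM, against 399 to 1886 CPM in Tim-4- TAMs (edgeR, adjusted p = 0.00791 for Msln to 0.0317 for Wt1, the extremes, named after their values were seen). None was at 0 in both subsets. In bulk RNA, fewer cells of a type and less RNA per cell cannot be told apart. Of 16861 genes tested, 1512 were higher and 1421 lower in Tim-4+ TAMs (edgeR quasi-likelihood test, pair as a block, adjusted p under 0.05). Scaling by total counts shifted the median of all log2 fold changes to -0.36 and the calls to 789 higher and 4903 lower. Changes below are relative to TMM scaling.

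Of the 7 members, 6 had enough counts to be tested, and 1 of them, Siglece, was called higher in Tim-4+ TAMs. None was called lower (edgeR quasi-likelihood test), although 1 member, Cd22, was lower at an unadjusted p under 0.05 and was called lower by DESeq2. Over all genes tested, 8.97% were called higher and 8.43% lower. The median log2 fold change of the 6 tested members was 0.36, and that of all genes tested was -0.0012. Fitted changes were above 0 for Siglec1, Cd33, Siglece and Siglecf and below 0 for Cd22 and Siglecg.

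**Figure D1:**
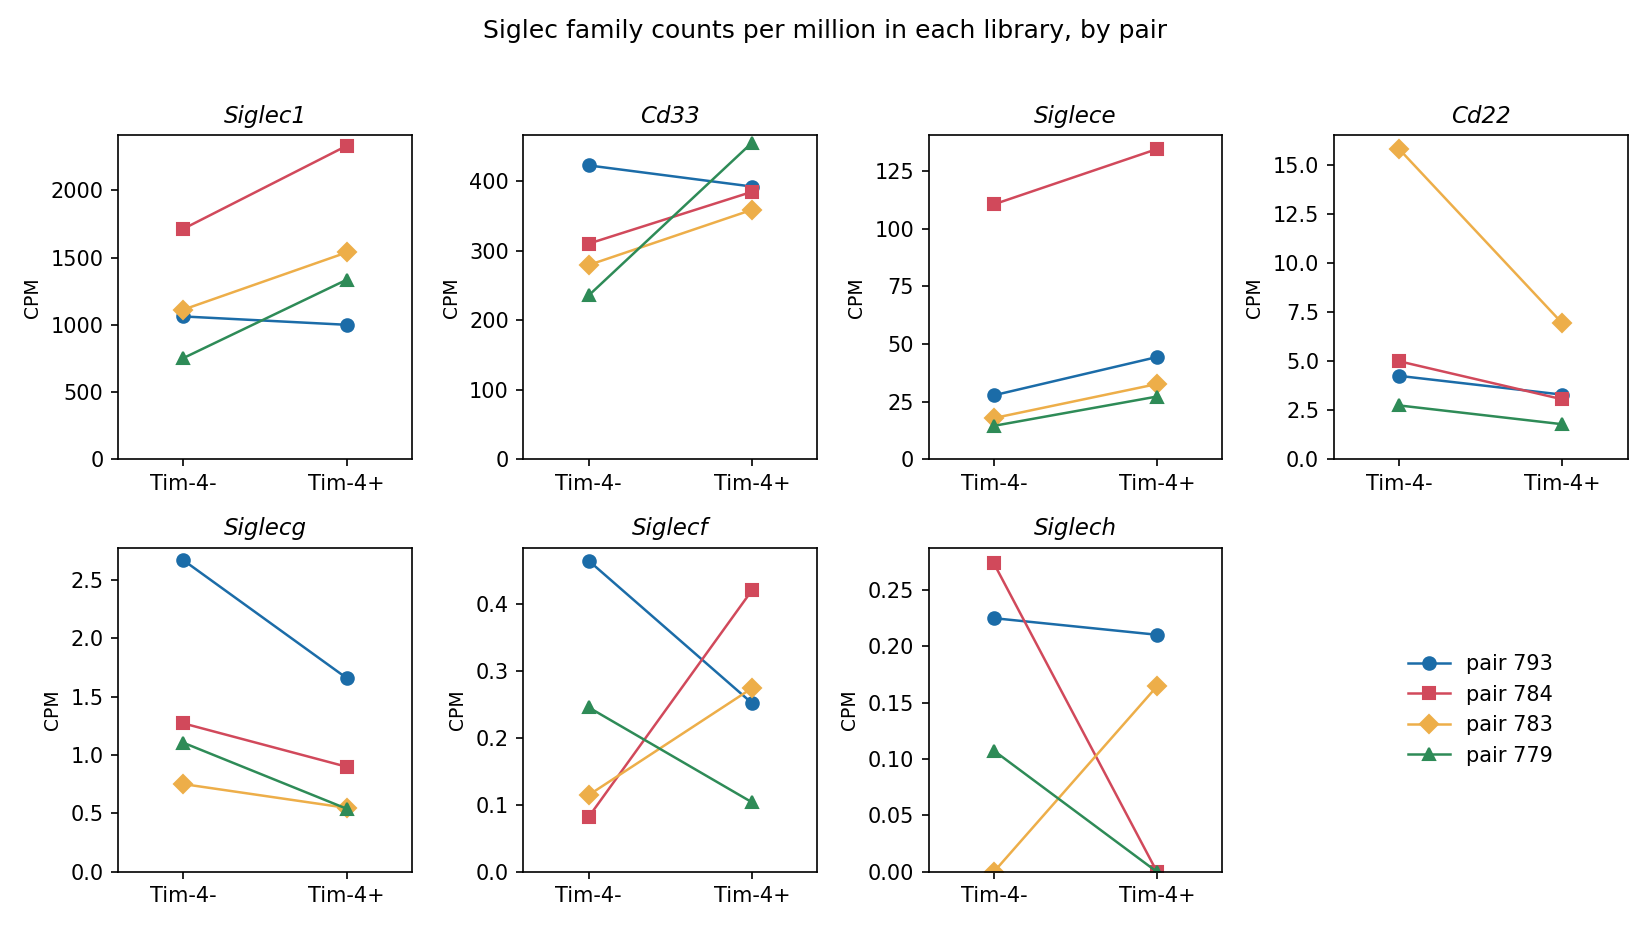
CPM (TMM-scaled, linear axis from 0) of each Siglec family member in Tim-4- and Tim-4+ TAMs, with a line joining the 2 libraries of each of the 4 pairs. Siglece is higher in the Tim-4+ library in 4 of 4 pairs, and both libraries of pair 784 stand above the other 6, at 111 and 135 CPM.

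Siglece rose 1.61-fold in Tim-4+ TAMs. Its level was 44.4, 135, 32.7 and 27.2 CPM in the Tim-4+ libraries and 27.8, 111, 17.9 and 14.5 CPM in the Tim-4- libraries of pairs 793, 784, 783 and 779. The Tim-4+ library was the higher one in 4 of 4 pairs, whereas the ranges of the 2 subsets overlapped because pair 784 was high in both. The log2 fold change was 0.68 ± 0.13 (SE, 95% interval 0.38 to 0.98, adjusted p = 0.0147 by the edgeR quasi-likelihood test). The log2 ratio within a pair was 0.28 in pair 784, the smallest, 0.68 in pair 793, 0.87 in pair 783 and 0.91 in pair 779. Pairs differed more than subsets did, since the highest pair mean was 6.14 times the lowest. Neutrophils also express Siglece, and of 10 neutrophil markers 5 were highest in pair 784 among the Tim-4+ and 7 among the Tim-4- libraries, among them the granule gene Mpo (0.66 and 2.49 CPM), whereas S100a8 was highest in pair 783 in both subsets. Their summed level was 4.12 CPM in the Tim-4+ and 7.08 CPM in the Tim-4- library of pair 784, against 2.0 to 3.8 CPM and 2.01 to 2.78 CPM in the other pairs. The macrophage marker list was also higher in Tim-4+ TAMs, as given above. The part of neutrophils and of macrophage content in these values was not tested. The call was lost when pair 793, 784 or 779 was left out (adjusted p = 0.0568, 0.0526 and 0.0601), with log2 fold changes of 0.69, 0.82 and 0.61. It was also lost without the pair block (0.48, adjusted p = 0.769) and under scaling by total counts (0.33, adjusted p = 0.116), and the direction was the same in all of these.

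The genes whose log2 CPM followed that of Siglece most closely over the 8 libraries, among 8768 genes that averaged 10 CPM or more, were Pphln1 (Pearson r = 0.976), Noc3l (r = 0.975) and Tgm2 (r = 0.974). Tgm2 encodes transglutaminase 2, a protein cross-linking enzyme abundant in macrophages. It was 773 CPM on average in the Tim-4+ and 553 CPM in the Tim-4- libraries and was called higher (log2 fold change 0.50, adjusted p = 0.033 by the edgeR quasi-likelihood test). Pphln1 (log2 fold change 0.18) and Noc3l (0.23) were not called. These 8 points share pairs, and Siglece was highest in pair 784 in both subsets.

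Siglec1, the sialoadhesin of tissue macrophages, was the most abundant member and did not pass the test between subsets. It was 1000, 2331, 1538 and 1335 CPM in the Tim-4+ and 1062, 1714, 1113 and 752.8 CPM in the Tim-4- libraries of pairs 793, 784, 783 and 779. The Tim-4+ library was higher in 3 of 4 pairs, and in pair 793 the 2 libraries were nearly level. The log2 fold change was 0.41 ± 0.18 (SE, 95% interval -0.003 to 0.83, adjusted p = 0.152 by the edgeR quasi-likelihood test). Under scaling by total counts it was 0.06.

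Cd33, which encodes a myeloid Siglec, was the next most abundant member, and its log2 ratios within pairs stood in the same order as those of Siglec1. Its level was 392.7, 385.0, 359.1 and 455.6 CPM in the Tim-4+ and 423.1, 310.4, 279.6 and 235.8 CPM in the Tim-4- libraries of pairs 793, 784, 783 and 779. It was higher in Tim-4+ TAMs in 3 of 4 pairs and slightly lower in pair 793. The Tim-4- library of that pair also had the most Timd4, and a link between these values was not tested. The log2 fold change was 0.38 ± 0.18 (SE, 95% interval -0.03 to 0.78, adjusted p = 0.174 by the edgeR quasi-likelihood test). Its levels varied least between pairs of the 6 tested members, with a highest pair mean 1.29 times the lowest, against 1.99 times for Siglec1. Under scaling by total counts the log2 fold change was 0.02.

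Cd22, an inhibitory co-receptor of the B cell receptor, was low and was the member with the largest fitted change below 0. Its level was 3.30, 3.06, 6.94 and 1.79 CPM in the Tim-4+ and 4.26, 5.0, 15.8 and 2.75 CPM in the Tim-4- libraries of pairs 793, 784, 783 and 779. The Tim-4+ library was the lower one in 4 of 4 pairs, and pair 783 was the highest in both subsets. The log2 fold change was -0.73 ± 0.21 (SE, 95% interval -1.21 to -0.24), and its adjusted p of 0.0502 (edgeR quasi-likelihood test) lay just above the threshold of 0.05. It passed at other filters (adjusted p = 0.0443 with no filter and 0.0465 with at least 50 counts), from lane 2 alone (0.0391) and by DESeq2 (0.00623). Leaving out any 1 pair gave log2 fold changes of -0.84 to -0.57, none of which was called. The antisense gene Gm29439, which overlaps Cd22, had 0 counts in all libraries.

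Siglecg, which restrains B cell receptor signaling in B-1 cells, was lower in the Tim-4+ library in 4 of 4 pairs but did not pass the test. It was 1.66, 0.90, 0.55 and 0.54 CPM in the Tim-4+ and 2.67, 1.27, 0.75 and 1.11 CPM in the Tim-4- libraries of pairs 793, 784, 783 and 779. Pair 793 was the highest in both subsets. The log2 fold change was -0.66 ± 0.31 (SE, 95% interval -1.38 to 0.05, adjusted p = 0.175 by the edgeR quasi-likelihood test), and scaling by total counts gave -1.02 with an adjusted p of 0.0429.

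The B cell markers were low but present beside both genes. Of 13 markers, 11 were tested, and edgeR called 0 higher (0 also by DESeq2 and at an unadjusted p under 0.05) and 3 lower (Cd79b, Blk and Ighm, of which Cd79b and Blk were named after their values were seen), with a median log2 fold change of -0.54. Summed over the list, the level was 101 to 139 CPM in the Tim-4+ and 93.8 to 165 CPM in the Tim-4- libraries, of which Bhlhe41, which macrophages also express, made up 46.4% to 81.7%, at 43.6 to 98.4 CPM. Ighm, the heavy chain of IgM, was 12.3 to 33.0 CPM in the Tim-4+ and 25.9 to 57.4 CPM in the Tim-4- libraries, and fell by 0.90 on the log2 scale (edgeR, adjusted p = 0.0105). No marker of the list was at 0 counts over all libraries. Among all genes tested, 8.97% were called higher and 8.43% lower. The part of B cells in the values of Cd22 and Siglecg was not tested.

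Siglecf, the receptor known from eosinophils, was near the limit of detection in both subsets. It had 12, 21, 15 and 5 counts in Tim-4+ libraries and 31, 6, 9 and 16 counts in Tim-4- libraries of pairs 793, 784, 783 and 779, that is 0.10 to 0.42 CPM and 0.08 to 0.46 CPM. The Tim-4+ library was higher in 2 of 4 pairs. The log2 fold change was 0.35 ± 0.76 (SE, 95% interval -1.41 to 2.11, adjusted p = 0.789 by the edgeR quasi-likelihood test), so that a change of 2-fold in either direction was within the interval, and without pair 784 it was -0.29. Of 7 eosinophil markers, 2 had 0 counts in all libraries, 1 was tested and not called, and their summed level was 0.18 to 0.861 CPM in the Tim-4+ and 0.357 to 0.479 CPM in the Tim-4- libraries. Ccr3, the marker with the highest level, was 0.06 to 0.458 CPM and 0.109 to 0.166 CPM.

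Siglech, known from plasmacytoid dendritic cells, had too few counts to be tested. Its counts were 10, 0, 9 and 0 in Tim-4+ libraries and 15, 20, 0 and 7 in Tim-4- libraries of pairs 793, 784, 783 and 779. In 3 of the 8 libraries it had 0 counts, which allows up to 3 counts, and the lanes of a library could differ, with 15 and 0 counts in the Tim-4- library of pair 793 and 7 and 0 in that of pair 779. No difference between subsets was detectable at this depth. Of 9 plasmacytoid dendritic cell markers, 6 were tested and 0 called by edgeR, while 3 had an unadjusted p under 0.05 (1 higher and 2 lower) and DESeq2 called 1 higher and 2 lower. None was at 0 counts over all libraries. Most of their sum (72.7 to 133 CPM in the Tim-4+ and 59.4 to 118 CPM in the Tim-4- libraries) came from Tcf4, which other cells also express, at 54.3 to 124 CPM.

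**Figure D2:**
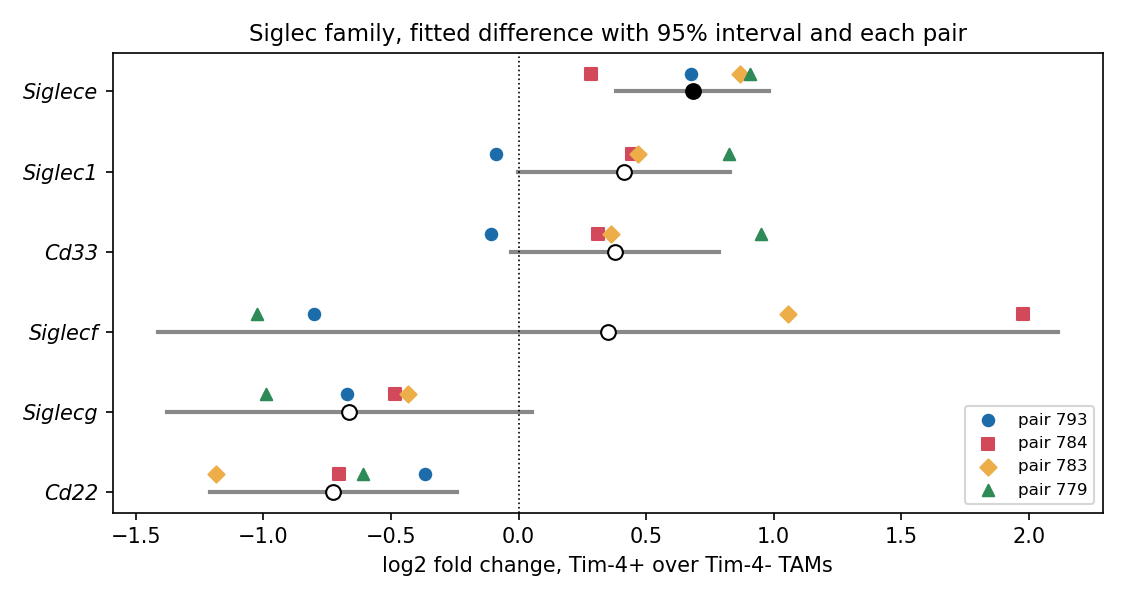
Log2 fold change of Tim-4+ over Tim-4- TAMs for the 6 tested members: large circles are the edgeR estimates (filled where called), gray bars their 95% intervals, and small symbols the log2 ratio in each pair. The interval of Siglece runs from 0.38 to 0.98, and that of Siglecf from -1.41 to 2.11.

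Per kilobase of merged exons, the members spanned a wide range of levels, in the same order of means in both subsets. Averaged over all 8 libraries, Siglec1 was at 189.8, Cd33 at 45.7, Siglece at 27.7, Cd22 at 1.06, Siglecg at 0.246, Siglecf at 0.0877 and Siglech at 0.0362 CPM per kilobase. Siglec1 was 4.15 times Cd33 and did not overlap it in any library (105.4 to 326.4 against 30.3 to 58.6 CPM per kilobase). Cd33 and Siglece overlapped (30.3 to 58.6 against 7.84 to 72.8), because Siglece in pair 784 exceeded all values of Cd33. Between Siglece and Cd22 lay the widest gap, of 26.02 times, with no overlap (7.84 to 72.8 against 0.355 to 3.14). The 4 lowest members overlapped each with the next. Of the counts on the 7 members, Siglec1 took 77.2% in Tim-4+ and 76.3% in Tim-4- TAMs, Cd33 19.6% and 20.3%, and Siglece 2.95% and 2.82%. Dividing by the longest coding transcript raised Cd33 to 62.0 and Siglecg to 0.459 CPM per kilobase and kept the order. The merged exons of Cd33 were 7771 bases and its longest coding transcript 5728 bases, so its level depends on the transcript taken.

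**Figure D3:**
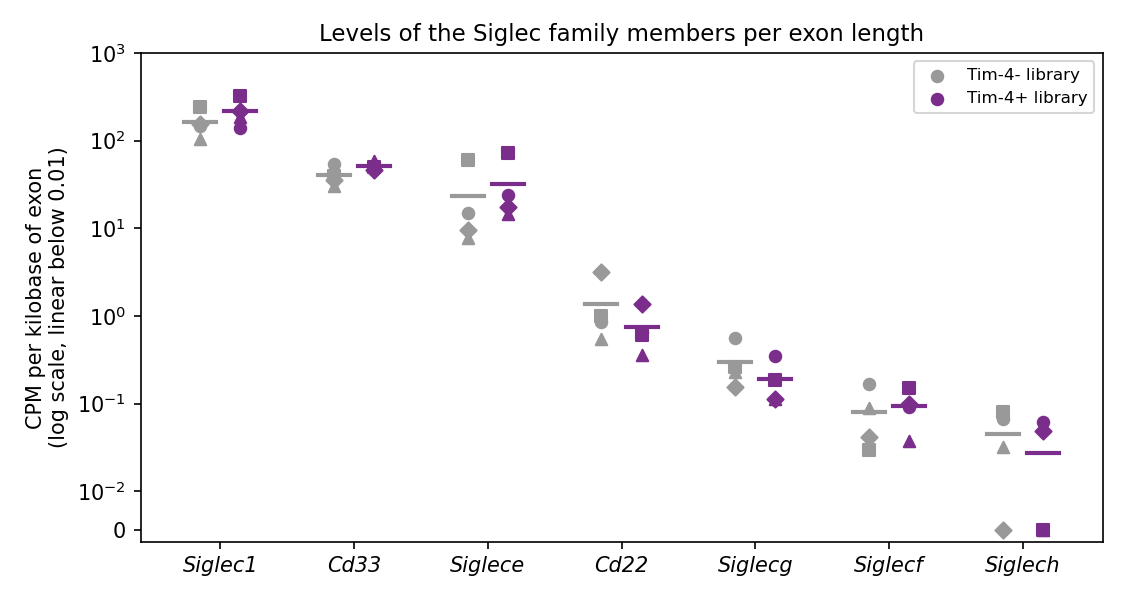
CPM per kilobase of merged exons for the 7 members in each library (log axis, linear below 0.01 so that libraries at 0 can be drawn), gray for Tim-4- and purple for Tim-4+ TAMs, with bars at the means over 4 libraries. Siglec1, Cd33 and Siglece lie between 7.84 and 326.4, and the other 4 members at or below 3.14.

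Reads without a unique place in the genome were not counted on genes, so the members were checked for sequence held by other genes. Among 50-base words, the length of a read, 0% of those in the transcripts of Siglece also stood in transcripts of other genes. The share was 0.46% for Cd33, 0.21% for Siglecf, 0.39% for Siglech, 1.33% for Siglec1, 4.64% for Siglecg and 7.84% for Cd22. Among the members, only Siglecf and Siglecg held words in common. The protein-coding genes next to the members on chromosome 7 were also compared, and 0 of the 10 tested were called by the edgeR quasi-likelihood test, 0 had an unadjusted p under 0.05 and 0 were called by DESeq2. Zfp819 (log2 fold change 0.92, adjusted p = 0.241) and Ceacam18 (1.19, adjusted p = 0.205), between Cd33 and Siglece, were below 0.5 CPM on average in both subsets, and Ctu1, beyond Siglece, had a log2 fold change of 0.11. Mag, the Siglec of myelin next to Cd22, was 3.74 ± 0.76 CPM in the Tim-4+ and 3.36 ± 1.14 CPM in the Tim-4- libraries (SD, n = 4 each) and was not called. Siglec15 had 0 counts in all libraries, of which each allows up to 3.

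The genes around the Siglecs came from 9 lists, covering other Siglecs, signaling partners, sialic acid metabolism and ligands. These lists were written from general knowledge, with earlier results of these data known. Of 68 genes, 67 were found and 56 tested. Of those tested, 11 were called higher and 8 lower, with a median log2 fold change of 0.14. Among all genes tested, 8.97% were called higher and 8.43% lower, with a median of -0.0012. Those shares are the ones to set beside the counts of each list below. Sialyltransferases made up 7 of the 19 calls on the lists and ligands another 7, in both directions. Of these 19 calls, 2 were kept without the pair block (St8sia1 and Cd24a), 3 without pair 784 (St3gal5, Cd24a and Muc16), 5 without pair 779, 9 without pair 793, 17 without pair 783, 14 under scaling by total counts and 19 by DESeq2, with no change of direction.

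**Figure D4:**
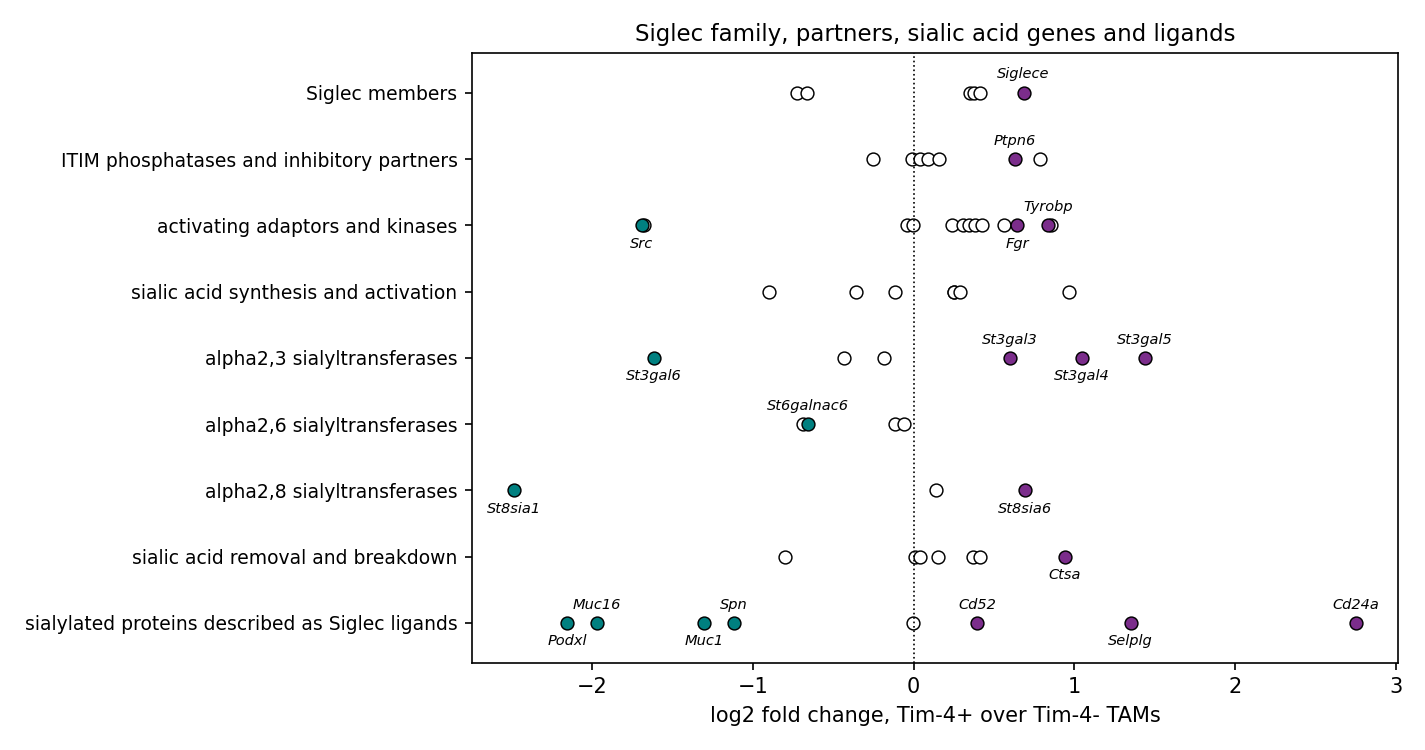
Log2 fold change of Tim-4+ over Tim-4- TAMs for the tested Siglec family members and the genes of the 8 pathway lists with more than 1 tested gene, 1 circle per gene, filled purple where called higher and teal where called lower. Ligands spread from -2.16 (Podxl) to 2.75 (Cd24a), and no gene of sialic acid synthesis is filled.

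Among signaling partners, Ptpn6, which encodes the phosphatase SHP-1 recruited by ITIMs, rose in Tim-4+ TAMs (318.2 to 529.6 CPM against 174.3 to 311.8 CPM, log2 fold change 0.63 ± 0.15 SE, adjusted p = 0.0299). The subsets did not overlap. The call was lost under scaling by total counts, without the pair block and when pair 793, 784 or 779 was left out. It was the only one of 7 tested phosphatases and inhibitory partners that edgeR called, while 2 were higher and 1 lower at an unadjusted p under 0.05, and DESeq2 called 2 higher. Of the 13 tested activating adaptors and kinases, 2 rose and 1 fell. Tyrobp, the DAP12 adaptor with which Cd33 and Siglech can pair, was 798.0 to 1208 CPM in Tim-4+ and 425.2 to 688.6 CPM in Tim-4- TAMs, without overlap (log2 fold change 0.84 ± 0.19 SE, adjusted p = 0.0238). Fgr, a Src family kinase of myeloid cells, was 111.6 to 318.1 CPM and 51.1 to 225.6 CPM and was higher in 4 of 4 pairs (0.64 ± 0.14 SE, adjusted p = 0.0219). Src itself fell by 1.69 on the log2 scale, from 10.7 to 34.4 CPM in Tim-4- TAMs to 4.62 to 9.54 CPM in Tim-4+ TAMs (adjusted p = 0.0336). These and the following p-values are from the edgeR quasi-likelihood fit over all genes. The calls of Tyrobp, Fgr and Src were lost without the pair block and when pair 793, 784 or 779 was left out. That of Fgr was also lost under scaling by total counts, and that of Src with no count filter.

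None of the 7 tested genes of sialic acid synthesis and activation was called by edgeR. At an unadjusted p under 0.05, 2 were higher and 0 lower, and DESeq2 called 1 higher. Cmah and Nanp, the extremes, were named after their values were seen. Cmah was 33.4 to 98.0 CPM in Tim-4+ and 16.4 to 53.6 CPM in Tim-4- TAMs. It was higher in 4 of 4 pairs (log2 fold change 0.965 ± 0.299 SE, adjusted p = 0.0725). Nanp was lower in 4 of 4 pairs (-0.898 ± 0.391 SE, adjusted p = 0.152). Nans, the sialic acid synthase, was 77.4 to 112.1 CPM in Tim-4+ and 57.2 to 97.2 CPM in Tim-4- TAMs (log2 fold change 0.29, or -0.07 under scaling by total counts). Renbp was 60.0 to 78.6 CPM and 53.1 to 90.4 CPM.

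The enzymes that attach sialic acid moved in both directions. Of 6 α2,3-sialyltransferases, 3 rose, 1 fell and 2 were not called. St3gal5, the GM3 ganglioside synthase, was 282.6, 232.8, 149.0 and 181.0 CPM in the Tim-4+ and 123.6, 61.1, 61.8 and 70.3 CPM in the Tim-4- libraries of pairs 793, 784, 783 and 779. All Tim-4+ libraries were above all Tim-4- libraries (log2 fold change 1.44 ± 0.15 SE, adjusted p = 0.00395). St3gal4 rose by 1.05 ± 0.20 SE on the log2 scale (adjusted p = 0.0173) and St3gal3 by 0.60 ± 0.11 SE (adjusted p = 0.0148), each in 4 of 4 pairs. St3gal6 fell by 1.61 on that scale (SE 0.28, adjusted p = 0.012), at 1.32 to 3.0 CPM in Tim-4+ and 4.82 to 11.7 CPM in Tim-4- TAMs. The call of St3gal5 was lost only without the pair block. Those of St3gal4 and St3gal6 were lost without the pair block and without pair 784 or 779. That of St3gal3 was lost under scaling by total counts, without the pair block and without pair 793, 784 or 779.

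Of 4 tested α2,6-sialyltransferases, 1 fell and none rose by edgeR, by DESeq2 or at an unadjusted p under 0.05. St6gal1, which makes the α2,6-linked ligands that Cd22 binds and was named after its values were seen, was 68.4 to 248.3 CPM in Tim-4+ and 92.2 to 249.8 CPM in Tim-4- TAMs and was not called (log2 fold change -0.06 ± 0.15 SE, adjusted p = 0.812). The 1 that fell was St6galnac6, which acts on other acceptors (16.6 to 28.1 CPM against 25.7 to 41.3 CPM, log2 fold change -0.66, adjusted p = 0.0257). Of 3 tested α2,8-sialyltransferases, St8sia1, the GD3 synthase, fell by 2.48 on the log2 scale (1.26 to 3.0 CPM against 5.36 to 17.2 CPM, adjusted p = 0.0164). St8sia6 rose, at 32.9 to 102 CPM in Tim-4+ and 21.2 to 87.8 CPM in Tim-4- TAMs and higher in 4 of 4 pairs (0.69 ± 0.18 SE, adjusted p = 0.0387). This call was lost under scaling by total counts, without the pair block and without pair 784 or 779. The St6galnac6 call was lost without the pair block and without pair 793, 784 or 779. The St8sia1 call was lost without pair 793, 784 or 779. Of 7 tested genes for removal and breakdown, edgeR called only Ctsa, while 3 were higher and 1 lower at an unadjusted p under 0.05 and DESeq2 called 2 higher. Ctsa encodes protective protein/cathepsin A, the lysosomal partner of neuraminidase 1, and was 1301 to 1615 CPM in Tim-4+ and 541.3 to 1056 CPM in Tim-4- TAMs, without overlap (0.94 ± 0.18 SE, adjusted p = 0.0142). The call was lost without the pair block and without pair 784 or 779. Ptpn6, Tyrobp and Ctsa rose beside the 6 macrophage markers that rose, and the part of macrophage content in these values was not tested.

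Of 8 sialylated proteins described as Siglec ligands, 3 rose, 4 fell and Ptprc was not called. Cd24a, a mucin-like anchor protein described as a ligand of Siglec-G, was 254.9, 305.9, 86.3 and 275.4 CPM in the Tim-4+ and 54.1, 29.98, 22.1 and 25.4 CPM in the Tim-4- libraries of pairs 793, 784, 783 and 779. Its subsets did not overlap, and the change was 6.72-fold (log2 fold change 2.75 ± 0.29 SE, adjusted p = 0.0065). Selplg, the selectin ligand PSGL-1, rose 2.55-fold (984.0 to 1426 CPM against 274.4 to 757.5 CPM, adjusted p = 0.00883). Cd52 rose 1.32-fold (adjusted p = 0.0421), and its ranges overlapped. The Cd52 call was lost when any pair was left out, under scaling by total counts, with no count filter and without the pair block. Spn, the leukosialin CD43 that Siglec1 binds, was 10.5 to 17.9 CPM in Tim-4+ and 19.0 to 47.9 CPM in Tim-4- TAMs (log2 fold change -1.12 ± 0.14 SE, adjusted p = 0.00638). The calls of Selplg and Spn were lost without the pair block and without pair 784.

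The other ligands that fell were Muc16, Podxl and Muc1, epithelial and mesothelial glycoproteins. Muc16 was 3.11 to 14.3 CPM in Tim-4+ and 14.9 to 45.7 CPM in Tim-4- TAMs (log2 fold change -1.97 ± 0.16 SE, adjusted p = 0.00256). Podxl was 28.4 to 55.5 CPM and 86.1 to 420.5 CPM (-2.16 ± 0.43 SE, adjusted p = 0.0218). Muc1 was 0.146 to 1.68 CPM and 0.491 to 3.94 CPM (-1.30 ± 0.35 SE, adjusted p = 0.0399), and its call was lost when any pair was left out. The Muc1 call was also lost with no count filter, without the pair block and from lane 2 alone. That of Podxl was lost with no count filter, without the pair block and without pair 793, 784 or 779. That of Muc16 was lost without the pair block. These falls stood beside those of the 7 tumor and mesothelial markers, whose median log2 fold change was -2.25. Krt19 was 21.8 to 120.0 CPM in Tim-4+ and 93.3 to 477.8 CPM in Tim-4- TAMs, and Upk3b 27.5 to 67.5 CPM and 120.1 to 543.1 CPM. The part of tumor and mesothelial RNA in the lower values of these ligands, and of Src, St8sia1, St3gal6 and St6galnac6, was not tested.

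Markers of the remaining cell types were low. Of the 10 neutrophil markers, 2 were tested and 0 called by edgeR, 0 by DESeq2 and 0 at an unadjusted p under 0.05. S100a8 was 1.53 to 2.89 CPM in Tim-4+ and 1.39 to 1.90 CPM in Tim-4- TAMs. Their summed level was 1.995 to 4.12 CPM and 2.01 to 7.08 CPM. Of 8 T cell markers 3 were tested, and Cd4, which some macrophages express, was the 1 called (log2 fold change -2.75), while Cd2 was 0.42 to 1.83 CPM and 0.675 to 2.14 CPM. Of 6 conventional dendritic cell markers, 1 was higher (Cd209a, named after its values were seen) and 2, Zbtb46 and Itgax, were lower by edgeR, with sums of 12.5 to 19.0 CPM and 13.7 to 27.3 CPM.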

How the data were processed

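The study's 16 samples are the lanes of 8 RNA-Seq libraries (Ribo-Zero Gold rRNA removal, TruSeq Stranded Total RNA). For every lane the authors deposited raw counts on genes, not normalized. Their processing notes name FastQC 0.11.3, TopHat2 2.0.13, Cufflinks, Cuffdiff 2.2.1 and GRCm38 (mm10), whereas the methods name hg19. The program that counted and its strand setting are not given in the sources used here, so antisense and overlapping genes are uncertain. Identifiers were matched to GENCODE M21, which held 98.57%. Lane 1 of the pair 793 Tim-4- library names genes by symbol and was joined by order, with Timd4 moved to the top (96.8% of symbols at the same place). Lanes were summed as runs of 1 library, although they differed by more than counting error (chi-square per degree of freedom 2.29 to 2.42). Totals per library limit the precision, and the smallest level is 3 counts.

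The tested genes had 10 or more counts in 4 or more of the 8 libraries. The test was that of edgeR 4.0.16 (R 4.3.3): TMM factors, robust quasi-likelihood fit, pair as a block, Benjamini-Hochberg adjustment over 16861 genes, called at an adjusted p under 0.05. The SE is the log2 fold change divided by the square root of F. Sample titles give the pair numbers, and deviations from subset means correlated within every pair (r = 0.277 to 0.498). The study's own expression table carries the pair numbers in reverse order in both subsets, which renames the pairs but joins the same libraries. The numbers here follow the titles. Alternatives were other scalings and filters, no block, DESeq2 1.42.0, lane 2 alone, each pair left out and, added after the data were seen, leaving out the symbol-listed lane. Named genes are the members, called pathway genes, otherwise the 2 most abundant genes of each list, the 3 genes most like a called member over the libraries, and neighbors of the chromosome 7 members. Members and lists were chosen with earlier results of these data known. Differences within a pair are log2 ratios of CPM with a prior count of 2. Flow cytometry and human data were not analysed here.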

Additional observations from a re-analysis of the deposited data

Results flagged for a closer look

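Over 90 groups of 4 libraries, each a named gene in 1 subset, 7 held a library set far from the other 3 by Dixon's ratio, and chance alone flags about 1 in 20 groups. Siglece in pair 784 was far above the other pairs in Tim-4+ TAMs, at 135 CPM against 27.2 to 44.4 CPM, and in Tim-4- TAMs, at 111 CPM against 14.5 to 27.8 CPM. Mpo, a neutrophil granule gene, was also far higher in pair 784, at 0.66 CPM against 0 to 0.063 CPM in Tim-4+ TAMs and at 2.49 CPM against 0 to 0.03 CPM in Tim-4- TAMs. Of the 10 neutrophil markers, 5 were highest in pair 784 among the Tim-4+ and 7 among the Tim-4- libraries. S100a8 was highest in pair 783 in both subsets. Muc1 was set apart in pair 783, at 1.68 CPM against 0.146 to 0.36 CPM in Tim-4+ TAMs and at 3.94 CPM against 0.491 to 0.719 CPM in Tim-4- TAMs. St3gal5 in Tim-4- TAMs was 124 CPM in pair 793 and 61.1 to 70.2 CPM in the other pairs.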

How the results depend on the processing

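The member calls were few and near the threshold. Siglece was called under the main settings, and was not under scaling by total counts (0 members called higher, log2 fold change 0.325, 2 members called lower), without the replicate block (0 called higher, 0.484), or without pair 793, 784 or 779 (0 called higher, leave-one-out log2 fold changes 0.608 to 0.817). Cd22 was called lower under total counts (-1.08), with no count filter (-0.742), with at least 50 counts (-0.73), by DESeq2 with the block (-0.728), from lane 2 only (-0.827) and without the symbol-listed lane (-0.735), so that 1 member was called lower in each of the last 5. Siglecg was called lower under total counts (-1.02). Siglecf ranged from -0.293 without pair 784, below 0, to 0.849 without pair 779. Leaving out a pair gave 0 to 1 members called higher. Over all genes, the calls were 789 higher and 4903 lower under total counts, 147 and 85 without the pairing, 2204 and 2323 by DESeq2, and with 1 pair left out 91 to 1608 higher and 67 to 1975 lower, the lowest without pair 784. Pathway genes called were 6 higher and 20 lower under total counts, 1 and 1 without the block, 17 higher by DESeq2, 5 lower with no filter, and with 1 pair left out 2 to 14 higher and 1 to 8 lower. Of genes named only as examples, Mag (-0.149), Nans (-0.066), Csf1r (-0.112), Bhlhe41 (-0.179) and Tcf4 (-0.218) turned below 0 under total counts, Mag (leave-one-out -0.033 to 0.45) and Bhlhe41 (-0.027 to 0.399) also without pair 779, and none of these was called. Total-count scaling shifts every value by its construction, fewer samples enter a fit with a pair left out, and the cause of the other changes was not tested.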
